A study of Mus musculus with 2 samples.

Results

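The genes described here are 38 mouse genes for proteins that make, package, carry and break down neurotransmitters, chosen by symbol from a named list. All 38 matched 1 identifier each among 55536 annotated genes. A neurotransmitter is loaded into synaptic vesicles by a vesicular transporter, released, and cleared from the synapse by plasma membrane transporters on neurons and astrocytes or by enzymes. Astrocytes take up glutamate, convert it to glutamine and return it to neurons, which rebuild glutamate and GABA from it, and this exchange is the main transmitter cycle of the hippocampus. Monoamines and acetylcholine reach the hippocampus mostly through axons whose cell bodies lie in the midbrain, brainstem and basal forebrain, and those cell bodies hold most of the mRNA for their synthesis.

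The data are total RNA sequencing of the hippocampus from female B6CASTF1/J mice, first-generation hybrids of C57BL/6J and CAST/EiJ, aged 2 months, untreated as far as the labels say. The labels name the tissue as a layer of the hippocampus and do not say which layer. The 2 libraries, each from 300 ng of RNA, form 1 group. They have separate tissue records and 1 shared donor record, which leaves it unstated whether 2 animals were used, and part of their spread may be technical. With 1 group there is no contrast of conditions and no p-value was computed. Each level is in TPM, a transcript's share of the library scaled for its length, with mean ± SD over the 2 libraries.

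Annotated genes held 29490900 and 30691917 expected read counts in replicates 1 and 2, and a gene with 0 counts could reach up to 0.102 and 0.0977 CPM (read counts over the library's total, on a common scale). The spread between the libraries was 4.86% for a typical gene (square root of edgeR's common dispersion over 17782 genes). All 6 pan-neuronal, all 9 hippocampal glutamatergic, all 7 GABAergic and all 6 astrocyte marker genes were detected. The marker lists of oligodendrocytes, endothelium and leptomeninges were also detected in full, so the tissue held other cell types. The 4 thalamic marker genes were detected too, at 2.81 to 16.1 TPM, and whether thalamic cells were present was not tested. In such bulk tissue, fewer cells of a type and less RNA per cell cannot be told apart.

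The hippocampus expressed several genes of the glutamate and GABA part of this machinery strongly. It expressed the monoamine and acetylcholine part hardly at all, apart from the degrading enzymes and Ddc. The glutamate and GABA genes ranged from a mean of 1.18 TPM (Slc17a8) to 684 TPM (Slc1a2). Detected here means 1 TPM or more in both libraries, and 28 of the 38 genes were, where 58.0% of nuclear protein-coding genes and 26.8% of all annotated genes were. Among the 38, all 5 glutamate and GABA enzymes, all 5 Slc1 genes and all 3 glutamine transporters were detected. So were all 4 vesicular glutamate and GABA transporters and all 4 transporters of other amino acids and related compounds. None of the 3 plasma membrane monoamine transporters and none of the 3 vesicular monoamine and acetylcholine transporters reached the minimum. With the genes ranked by mean level, 18 of 27 neighbouring pairs of detected genes were separate, their ranges over the 2 libraries not overlapping. The median over all 38 genes was 14.8 TPM, beside 3.25 TPM over all nuclear protein-coding genes.

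**Figure D1:**
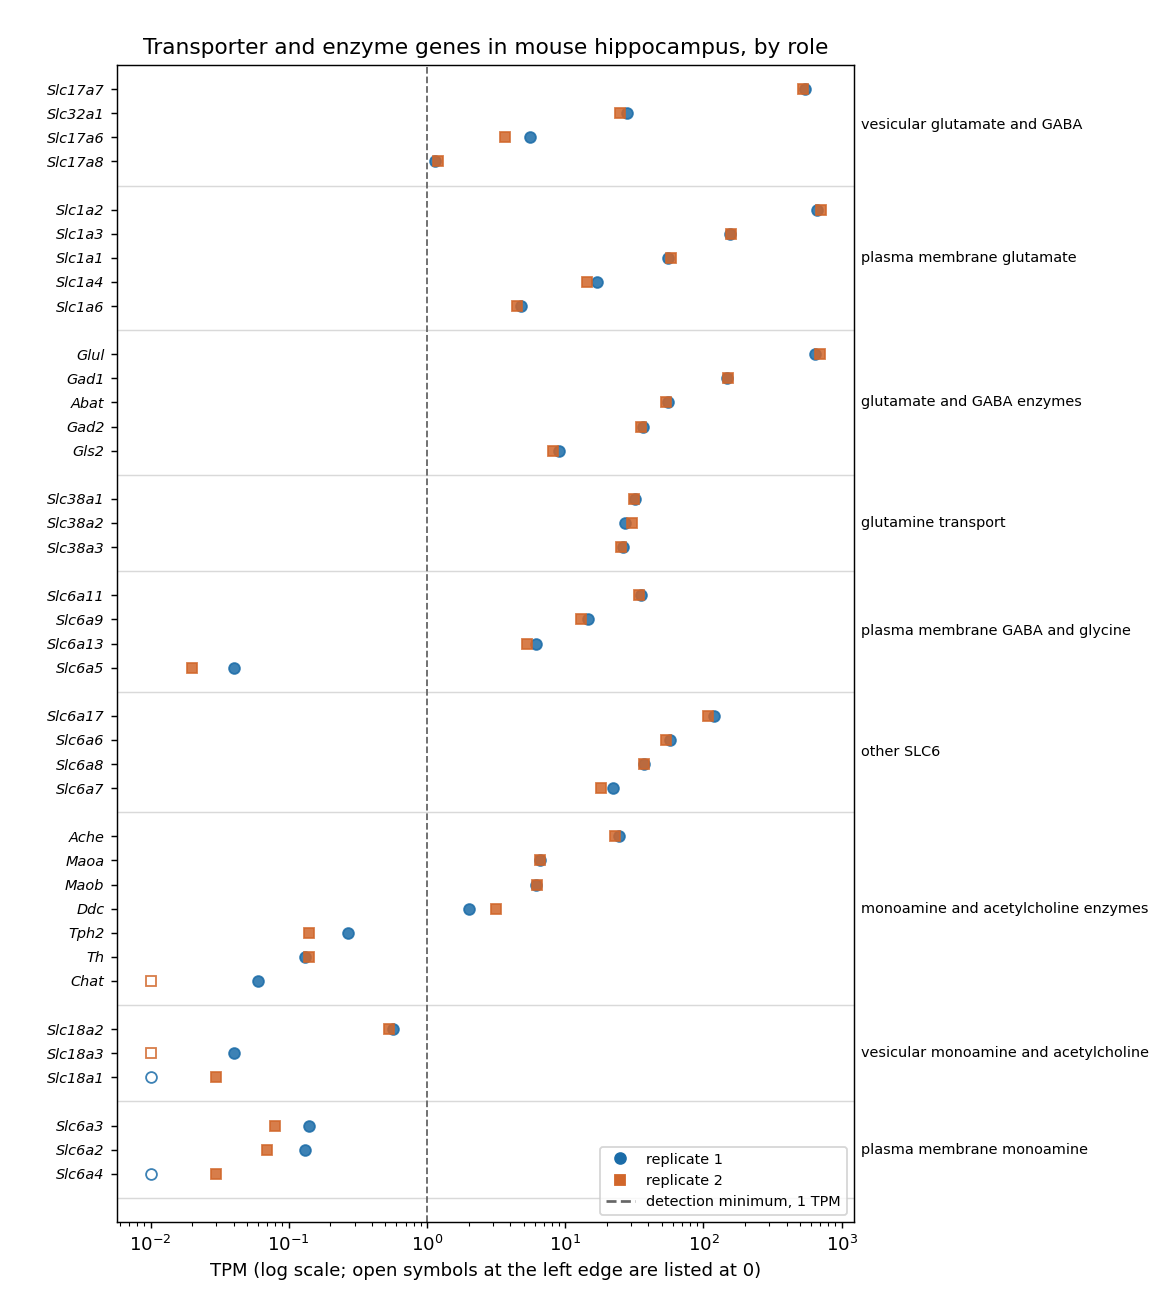
Level of each of the 38 genes in TPM on a log axis, grouped by role, with a circle for replicate 1 and a square for replicate 2; open symbols at the left edge mark a value listed at 0 and the dashed line marks 1 TPM. Slc1a2, Glul and Slc17a7 sit furthest right, the only genes of the 38 past 158.22 TPM, and all 6 vesicular and plasma membrane carriers of monoamines and acetylcholine sit left of the dashed line.

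Slc1a2, the main astrocytic glutamate transporter, Glul, the glutamine synthetase of astrocytes, and Slc17a7, which fills glutamate vesicles in most cortical and hippocampal excitatory neurons, stood far above the rest. Slc1a2 (chr2:102658659-102790784, + strand, mm10) was at 664.72 TPM in replicate 1 and 703.26 in replicate 2. Glul (chr1:153899944-153909723, + strand) was at 642.86 and 694.52 TPM. The ranges of these 2 genes overlapped, so their order is not settled. Slc17a7 (chr7:45163949-45176142, + strand) was at 541.78 and 524.28 TPM, below both in each library. Its order against Glul depended on short transcripts. With transcripts under 600 bases left out, a setting chosen after seeing the data, Glul was at 516.6 and 554.9 TPM. Slc17a7 kept its level there, so it lay above Glul in replicate 1 and below it in replicate 2. In the second quantification, described below, Slc17a7 was below Glul in both libraries. Together these 3 genes held 66.5% and 67.9% of the summed TPM of the 38.

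Slc1a2 mRNA occurred in forms that differ at both ends of the coding sequence, and these are shown because the 2 tails are those of well-known alternative transporter forms. The leading transcript, Slc1a2-202, held 72.2% ± 1.03 of the gene's TPM (SD, n = 2) and encodes 572 residues. It starts at position 102658659, while Slc1a2-203 and Slc1a2-201 both start at 102706438. Slc1a2-203 (569 residues) held 9.07% ± 0.264 and Slc1a2-201 (558 residues) held 4.78% ± 0.659. The sequences below are from the GENCODE M21 transcripts, 5′ to 3′, + strand of chromosome 2. At the coding starts, capitals mark the stretch that differs before the sequences join. At the coding ends they mark all bases after the sequences part, where single positions can still match.
Slc1a2-202 coding start: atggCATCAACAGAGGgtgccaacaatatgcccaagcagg
Slc1a2-203 coding start: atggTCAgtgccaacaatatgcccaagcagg
Slc1a2-203 coding end: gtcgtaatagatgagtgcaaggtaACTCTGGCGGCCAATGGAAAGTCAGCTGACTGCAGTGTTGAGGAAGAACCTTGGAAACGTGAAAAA
Slc1a2-201 coding end: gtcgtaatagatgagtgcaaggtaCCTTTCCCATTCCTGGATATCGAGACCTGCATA
Slc1a2-202 and Slc1a2-203 share their last 1700 coding bases, so both carry the 66-base tail, and the form with the 33-base tail was the lesser one in both libraries (5.25% and 4.32%). The second quantification, a further transcript table that the authors deposited for the same libraries, put Slc1a2-202 at 77.0% and Slc1a2-201 at 5.21%. Slc1a2-202 is 11595 bases long and held 96.4% and 96.0% of the gene's counts.

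The other glutamate carriers followed in a clear order. Slc1a3, the second astrocytic glutamate transporter, was at 154.33 and 158.22 TPM. Slc1a1, the glutamate and cysteine transporter of neurons, was at 55.71 and 58.04 TPM. Slc1a6, best known from cerebellar Purkinje cells, was at 4.82 and 4.49 TPM. Within each library Slc1a2 exceeded Slc1a3 by 2.11 and 2.15 on the log2 scale, or 4.38-fold on average, Slc1a3 exceeded Slc1a1 2.75-fold and Slc1a1 exceeded Slc1a6 12.2-fold. The authors' 95% intervals of the genes were separate at all 3 steps in both libraries. The Slc1a2 excess over Slc1a3 was 3.08-fold in the second quantification. With counts not divided by length it was 3.41 on the log2 scale, against 2.13, and Slc1a2 has the far longer leading transcript. Of the summed TPM of these 4 genes, Slc1a2 took 75.8% ± 0.380 and Slc1a6 0.517% ± 0.0439 (SD, n = 2). Slc1a4, a carrier of serine and other neutral amino acids in the same family, was at 16.91 and 14.41 TPM.

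Among vesicular transporters Slc17a7 dominated. Slc17a6, its counterpart in thalamic and other subcortical neurons, was at 5.55 and 3.69 TPM, and Slc17a8, found in a subset of interneurons and in serotonergic neurons, at 1.15 and 1.20 TPM. Slc17a7 thus made up 98.8% and 99.1% of the summed TPM of the 3. Slc32a1, which loads GABA and glycine into vesicles, was at 27.81 and 24.96 TPM, below Slc17a7 by 4.28 and 4.39 on the log2 scale, a 20.2-fold gap that was 20.1-fold in the second quantification. Slc17a6 was lower in replicate 2 by 0.52 on the log2 scale on 387 and 282 counts, with overlapping intervals (4.55 to 6.86 and 3.03 to 4.93 TPM). The 4 thalamic marker genes summed to 36.5 TPM in replicate 1 and 38.4 in replicate 2, with Prkcd (13.61 and 18.54) and Tcf7l2 (4.09 and 4.40) higher in replicate 2 and Calb2 (16.01 and 12.65) and Lef1 (2.84 and 2.78) lower. Their part in the Slc17a6 difference was not tested.

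GABA synthesis and breakdown genes were all present. Gad1 (chr2:70553072-70602014, + strand), one of the 2 glutamate decarboxylases that make GABA, was at 147.29 and 149.97 TPM. Gad2, the other, was at 36.29 and 35.12 TPM. Abat, the transaminase that breaks GABA down, was at 55.30 and 53.37 TPM. Gad1 exceeded Gad2 4.16-fold, Abat 2.74-fold and Slc32a1 5.64-fold, each ordered in both libraries.

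The size of the Gad1 excess depended on how its transcripts were counted. In the second quantification Gad1 exceeded Gad2 2.75-fold and Abat 1.82-fold. Gad1-204, an annotated fragment of 398 bases, held 30.1% of the gene's TPM but 4.32% of its counts in the first quantification and 0% in the second. With transcripts under 600 bases left out, a setting chosen after seeing the data, the excess over Gad2 was 2.91-fold and that over Abat 1.91-fold. With counts not divided by length, Gad1 was above Gad2 by 0.74 and above Abat by 0.37 on the log2 scale, against 2.06 and 1.45. Gad1 was still above Gad2, Abat and Slc32a1 under each of these settings. Relative to the shift of all protein-coding genes between the quantifications, a median of 0.78 on the log2 scale over 12741 genes, Gad1 lay 0.64 lower. It was the single member of 28 more than 0.5 from that median, where 8.45% of protein-coding genes were.

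**Figure D2:**
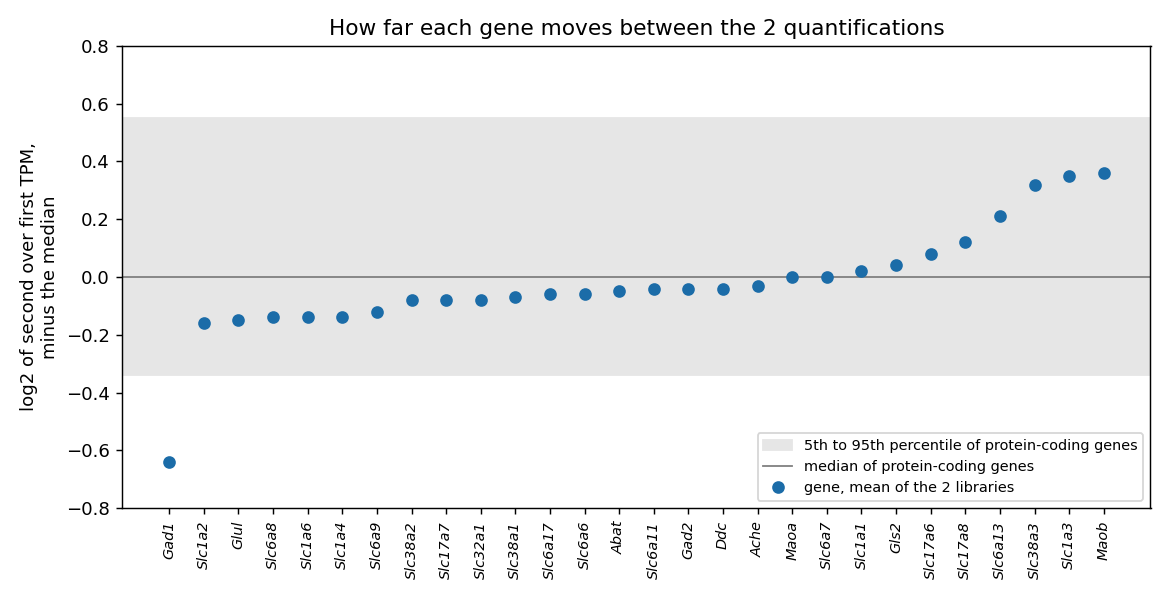
Log2 ratio of the second to the first TPM of each of the 28 detected genes, minus the median over 12741 protein-coding genes, as the mean of the 2 libraries; the grey band spans the 5th to 95th percentile of those genes. Gad1 lies below the band at -0.64 and the other 27 lie inside it, up to 0.36 for Maob.

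The 3 glutamine transporters were at similar TPM. Slc38a1, a neuronal glutamine importer, was at 31.81 and 31.61 TPM, Slc38a2, a related carrier that rises with amino acid shortage, at 26.92 and 30.49, and Slc38a3, the astrocytic glutamine exporter, at 26.09 and 25.40. They took 36.8% ± 0.974, 33.3% ± 2.20 and 29.9% ± 1.22 of their summed TPM (SD, n = 2). Slc38a1 exceeded Slc38a2 in both libraries, but their intervals overlapped in replicate 2. Slc38a1 exceeded Slc38a3 1.23-fold in the first quantification, with separate intervals, and the order turned in the second (0.941-fold). The 3 levels therefore cannot be ranked from these files. With counts not divided by length, Slc38a1 was above Slc38a3 by 1.94 on the log2 scale, against 0.3 in TPM. Gls2, a glutaminase that frees glutamate from glutamine, was at 9.06 and 8.22 TPM, and Glul exceeded it 77.4-fold.

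Carriers that clear GABA and glycine were at moderate levels. Slc6a11, the GABA transporter of astrocytes, was at 35.20 and 33.88 TPM. Slc6a13, a GABA and taurine carrier found mainly in meninges and vessels, was at 6.16 and 5.26 TPM, 6.07-fold below Slc6a11. Slc6a13 was lower in replicate 2 by 0.29 on the log2 scale with overlapping intervals, and the 5 choroid plexus markers summed to 128 and 71.4 TPM. Among them Ttr was at 120.94 and 65.68 TPM, Kl was the other one detected, and none was at 0. The 5 leptomeningeal markers summed to 61.4 and 57.2 TPM, with Dcn lower in replicate 2 (23.89 and 16.25) and the other 4 higher there. The part of these cells in the Slc6a13 difference was not tested. Slc6a9, the glycine transporter that keeps glycine low around NMDA receptors, was at 14.70 and 12.98 TPM. Slc6a5, the transporter of glycinergic neurons, had 4 and 2 counts (0.04 and 0.02 TPM). The Slc6a9 excess was 488-fold in the first quantification and 147-fold in the second, a size that rests on those few counts (Slc6a5 intervals of 0.0268 to 0.167 and 0.0171 to 0.136 TPM). Slc6a9 also overlaps B4galt2 (25.3 TPM) on the opposite strand, and the sources used here do not say whether strand was used in counting.

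The remaining Slc6 genes carry other solutes. Slc6a17, a vesicular carrier of neutral amino acids in neurons, was at 118.38 and 107.75 TPM. Slc6a7, the proline transporter of a subset of glutamatergic terminals, was at 22.09 and 18.19 TPM, 5.63-fold lower. Slc6a6, the taurine transporter, was at 57.63 and 53.25 TPM, and Slc6a8, the creatine transporter (chrX:73673150-73682502, + strand), at 37.18 and 37.29. Slc6a6 exceeded Slc6a8 1.49-fold, and 1.58-fold in the second quantification. The size of this excess depended on short transcripts. On the log2 scale Slc6a8 over Slc6a6 was -0.57, and -0.29 with transcripts under 600 bases left out. With counts not divided by length it was -0.67.

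Slc6a8 transcripts fell mainly into 2 coding forms that differ by a short inner stretch. Slc6a8-201 (640 residues) held 46.7% ± 4.20 of the TPM and Slc6a8-203 (635 residues) 14.7% ± 0.942 (SD, n = 2). The sequences below, from the GENCODE M21 transcripts, 5′ to 3′, show the 15 bases, in capitals, that the shorter form lacks without a change of reading frame.
Slc6a8-201 inner stretch: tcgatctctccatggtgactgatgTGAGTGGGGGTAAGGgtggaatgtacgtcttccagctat
Slc6a8-203 inner stretch: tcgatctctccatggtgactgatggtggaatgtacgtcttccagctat
In the second quantification the forms were closer, at 34.8% and 29.5%. Slc6a8-201 led in both libraries and both quantifications.

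**Figure D3:**
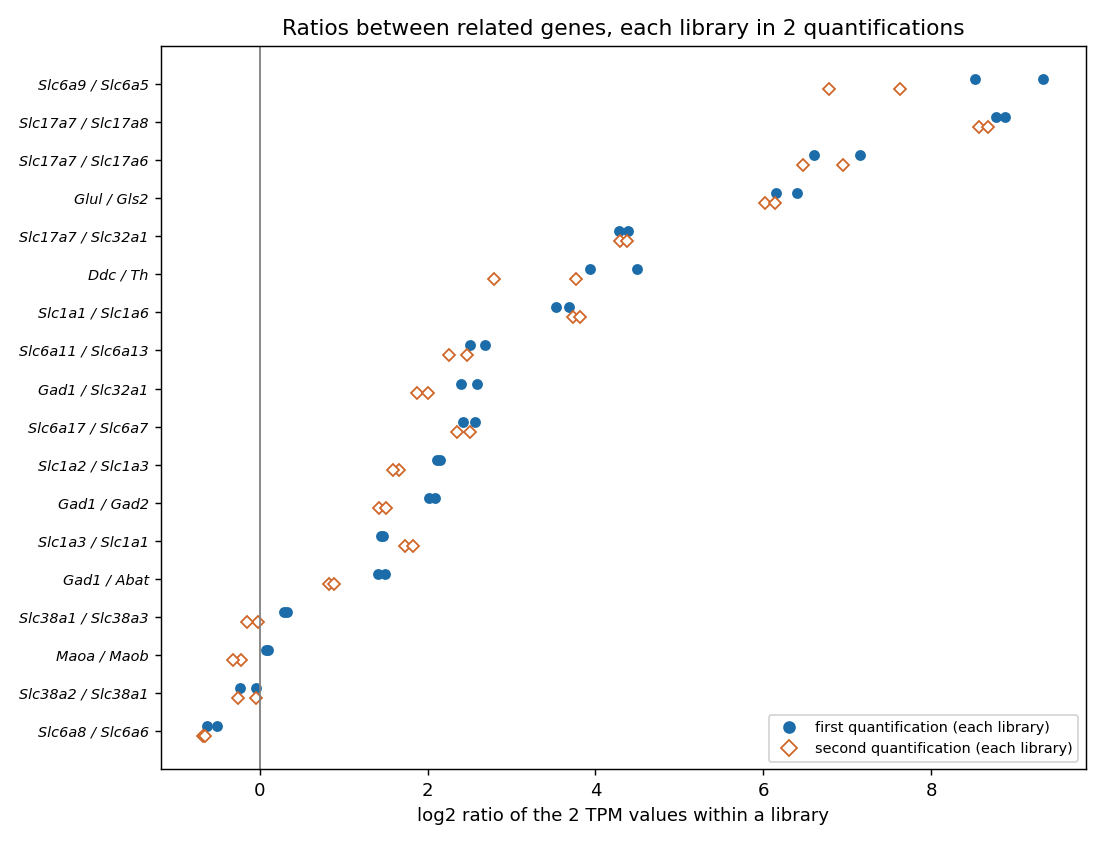
Log2 ratio of the TPM of 2 related genes within a library, for 18 pairs; filled circles are the 2 libraries in the first quantification and open diamonds the same libraries in the second. The circles of a pair lie close together next to the distances between pairs, 16 of 18 pairs keep their side of 0, and Slc38a1 / Slc38a3 and Maoa / Maob cross it.

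Over 20 pairs of related genes, ratios could be taken for 18, since Chat and Slc18a3 were listed at 0 in replicate 2. In 16 of the 18 the same gene was higher in both libraries with separate intervals. The 2 others were Slc38a2 over Slc38a1 and Maoa over Maob. The sign was kept in the second quantification by 16 of 18. The size of the ratio of Ddc over Th was 18.6-fold against 9.70-fold there, again with few counts behind it.

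Enzymes that break down monoamines and acetylcholine were expressed, unlike most of those that make them. Ache, the acetylcholinesterase, was at 24.61 and 22.86 TPM. Maoa and Maob, the monoamine oxidases, were at 6.59 and 6.58 and at 6.14 and 6.24 TPM. Their intervals overlapped in both libraries, at 1.06-fold apart, and in the second quantification Maob was the higher of the pair (Maoa over Maob, 0.830-fold). Of the synthetic enzymes only Ddc, the aromatic amino acid decarboxylase shared by dopamine and serotonin synthesis, was detected, at 2.00 and 3.15 TPM from 59 and 100 counts. Tph2, which starts serotonin synthesis in neurons, had 15 and 8 counts, Th, which starts catecholamine synthesis, 4 and 4, and Chat, which makes acetylcholine, 1 and 0.

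Carriers of these transmitters were near the limit of the data. Slc18a2, the vesicular monoamine transporter of neurons, was the highest, at 0.57 and 0.53 TPM from 46 counts in each library. Slc6a2, the noradrenaline transporter, had 17 and 10 counts and Slc6a3, the dopamine transporter, 10 and 6. Slc6a4, the serotonin transporter, and Slc18a1, a vesicular monoamine transporter of endocrine cells, had 0 and 2 counts each, and Slc18a3, which loads acetylcholine, had 2 and 0. With 0 to 2 counts in a library, the last 3 genes cannot be ranked. Slc18a3 lies inside the Chat locus on the same strand, so reads could be split between the pair, and Slc18a1 overlaps Atp6v1b2 on the opposite strand, which was at 201 TPM.

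Marker genes of the cell bodies that make serotonin, acetylcholine and dopamine were mostly as low. None of the 4 serotonergic and 5 cholinergic markers was detected, with summed levels of 0.25 and 0.39 TPM and of 0.71 and 0.64 TPM in replicates 1 and 2. The regulators Fev (serotonergic), Foxa2 (dopaminergic), and Lhx8 and Isl1 (cholinergic) were listed at 0 in both libraries. Of the 4 dopaminergic markers Nr4a2 was detected, at 26.95 and 21.48 TPM, a gene that other neurons express too, and the remaining 3 were at or below 0.03 TPM.

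The start of the Ddc transcripts differed between the quantifications. Ddc (chr11:11814101-11898144, - strand) has 2 promoter windows in RefSeq (GRCm38.p6, 250 bases before to 50 after a start), and the letters are shown because the quantifications divide the transcripts differently between them. CpG dinucleotides are in capitals, and both windows are written 5′ to 3′ on the - strand.
Ddc upstream window, chr11:11898095-11898394: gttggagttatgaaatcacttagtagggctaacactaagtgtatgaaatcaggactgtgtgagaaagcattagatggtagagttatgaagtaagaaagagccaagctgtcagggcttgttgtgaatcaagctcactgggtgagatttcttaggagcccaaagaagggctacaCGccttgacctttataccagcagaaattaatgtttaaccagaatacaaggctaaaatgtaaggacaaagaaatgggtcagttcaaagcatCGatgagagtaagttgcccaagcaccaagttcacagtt
Ddc downstream window, chr11:11890359-11890658: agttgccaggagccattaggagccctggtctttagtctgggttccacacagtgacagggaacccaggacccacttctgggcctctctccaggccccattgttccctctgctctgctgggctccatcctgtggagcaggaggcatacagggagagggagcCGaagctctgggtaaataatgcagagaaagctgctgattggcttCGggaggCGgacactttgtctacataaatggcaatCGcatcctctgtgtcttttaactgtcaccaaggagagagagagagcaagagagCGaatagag
In the first quantification 94.0% and 89.9% of the Ddc TPM lay on transcripts that start in the downstream window and 0% on Ddc-210, the one that starts in the upstream window. In the second, Ddc-210 held 48.2% and 54.3% and the downstream window 39.7% and 21.5%. Ddc-202 and Ddc-210 have the same coding sequence of 480 residues, but the quantifications also differ in the coding share of the gene, at 91.9% in the first and 51.2% in the second, where Ddc-208 and Ddc-206, both without a coding sequence, held 30.6% and 14.2%. In the first quantification these shares rest on 59 and 100 counts, and the counts behind the second are not given here.

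Promoter CpG content overlapped widely between the genes that were detected and those that were not. RefSeq windows matched 28 of the 38 symbols, 37 windows in all. Taking the window with the most CpG dinucleotides for each gene, the 20 detected genes had a median of 15.5 (1 to 41) and the 8 others a median of 13.5 (9 to 28). Over all 27025 symbols the median was 8. Some of these windows are not where the measured transcripts start: the Slc1a2 window, the one with 1 CpG, held 22.0% of that gene's TPM, and both Slc17a6 windows 0%. The windows of the abundant Slc1a3, with 3 CpG (chr15:8710758-8711057, - strand), and of Slc6a4, with 28 (chr11:76998347-76998646, + strand), are printed with CpG in capitals. They were picked after their values were seen, to show how far single genes depart from these medians, and do not stand for the groups.
Slc1a3 window: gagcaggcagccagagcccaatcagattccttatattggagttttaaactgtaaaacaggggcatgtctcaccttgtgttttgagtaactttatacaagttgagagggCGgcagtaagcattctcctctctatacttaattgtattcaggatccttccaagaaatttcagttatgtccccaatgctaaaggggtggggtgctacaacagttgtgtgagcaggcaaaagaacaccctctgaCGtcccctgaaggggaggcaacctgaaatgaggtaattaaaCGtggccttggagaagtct
Slc6a4 window: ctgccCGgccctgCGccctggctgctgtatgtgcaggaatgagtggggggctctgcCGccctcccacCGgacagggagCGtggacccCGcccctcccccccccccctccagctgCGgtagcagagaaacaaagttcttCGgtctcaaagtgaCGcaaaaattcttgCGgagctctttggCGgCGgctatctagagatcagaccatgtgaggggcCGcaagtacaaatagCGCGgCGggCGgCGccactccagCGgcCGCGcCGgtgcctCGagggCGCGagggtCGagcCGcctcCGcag
The letters TATAAA, on either strand, occurred in 4 of the 37 windows (Gad1, Tph2, Slc1a3 and the upstream one of Ddc), or 10.8%, beside 13.6% of all 32851 windows. These matches describe the letters alone.

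Most of these genes were read mainly from protein-coding transcripts. Over the 28 detected genes the median share of TPM on transcripts annotated protein coding was 92.5%, beside 87.4% over 12934 protein-coding genes, and 16 of the 28 were above 90%. Gls2 was lowest at 45.7% ± 1.62, with 47.7% ± 2.74 on retained-intron transcripts, and Slc6a6 followed at 47.4% ± 1.17, with 35.0% ± 1.51 on retained introns (SD, n = 2). Gls2 overlaps Spryd4 (3.87 TPM) on the opposite strand, and whether strand was used in counting is not stated. The part of Spryd4 reads in the Gls2 shares was not tested. Slc6a8 (27.3%), Slc1a1 (23.4%) and Ache (20.5%) also had over 20% on retained introns. These shares depend on transcript length. As shares of expected counts, the retained-intron part was lower for Slc6a6 (8.16%), Slc6a8 (10.5%), Slc1a1 (13.1%) and Gls2 (29.7%). For Ache it was higher, at 31.4%. The protein-coding part by counts was 88.2% for Slc6a6 and 61.3% for Gls2, and Gad1 was lowest, at 49.9%. Transcripts under 600 bases held 23.7% of the Slc6a6 TPM. In the second quantification the retained-intron share of Gls2 was 31.1% and that of Slc6a6 42.6%.

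**Figure D4:**
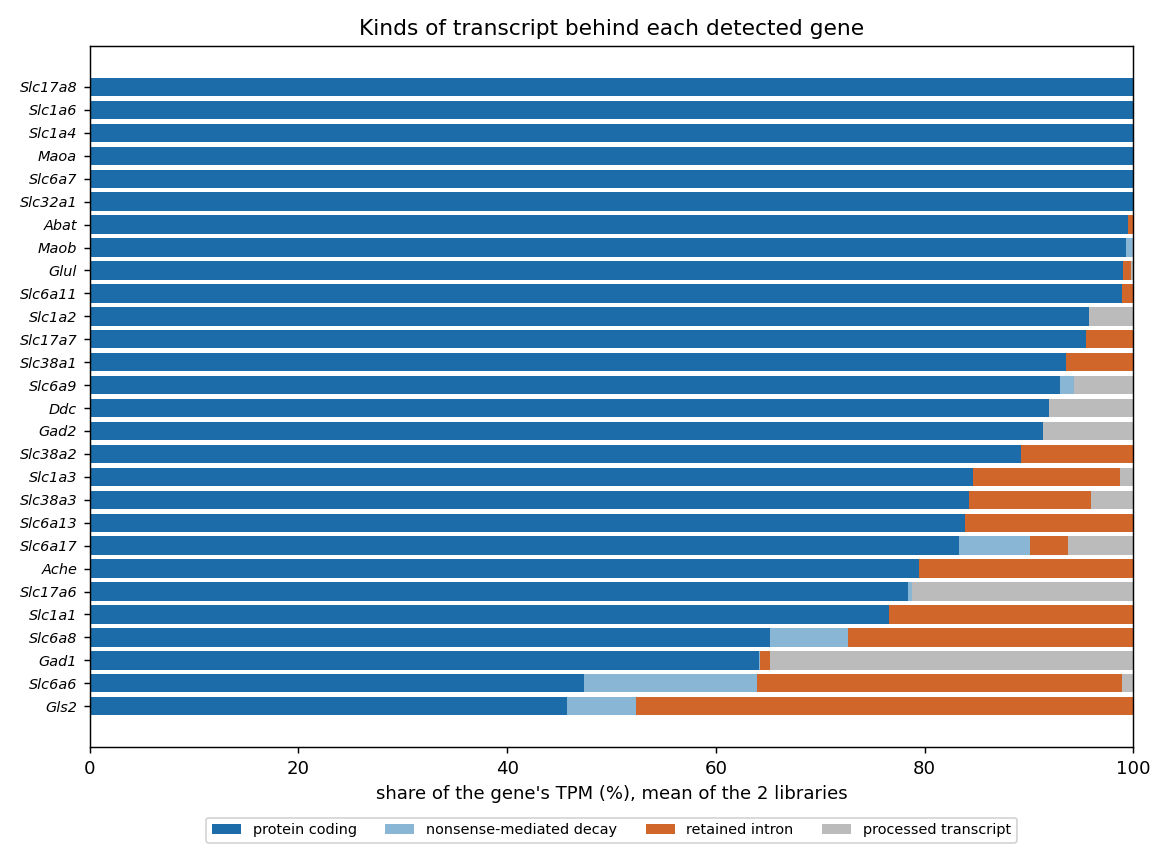
Share of each detected gene's TPM, in percent and as the mean of the 2 libraries, by the annotated kind of transcript; genes are ordered by the protein-coding share. Gls2 and Slc6a6 at the bottom have less than 50% on protein-coding transcripts, and Gad1 stands out by its grey part, the processed transcript Gad1-206.

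The leading transcript of a gene was mostly the same in both libraries. This held for 25 of the 26 detected genes with more than 1 annotated transcript, and for 88.6% of 11702 protein-coding genes of that kind. The exception was Slc6a9, where Slc6a9-201 held 38.7% and 36.8% and Slc6a9-202 31.7% and 39.0%. Both encode the same 633 residues and differ at their 5′ end. The lowest leading shares were those of Gad1, Slc38a3 (35.0%), Slc6a9 (37.7%), Gls2 (41.0%) and Slc6a6 (42.8%).

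Between the quantifications the leading transcript was the same for 22 of 26 genes, or 84.6%, beside 74.9% of all such genes. The 4 others were Gad1, Slc38a3, Slc1a4 and Ddc. For Gad1 the first quantification led with Gad1-206 (34.8%), a processed transcript with no annotated coding sequence, and the second with the coding Gad1-201 (86.6%, against 26.7% in the first). Of the 2996 bases of Gad1-206, 97.4% lie in exons of Gad1-201, so the 2 share most of their sequence. Slc38a3 changed from Slc38a3-209 to Slc38a3-201, which encode the same 505 residues. Slc1a4 changed from Slc1a4-202 (532 residues, 99.2%) to Slc1a4-201 (452 residues, 80.1%), all of whose exon bases lie within Slc1a4-202.

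The libraries gave nearly the same levels. Of the 29 genes at a mean of 1 CPM or more, 0 differed by 1 or more on the log2 scale (replicate 2 over replicate 1, TMM-scaled), where 0.516% of 15509 genes did. No p-value exists for 1 library against 1. The median over the 29 was -0.06, beside -0.01 over all genes, with 8 above 0 and 21 below. The extremes were Slc17a6 at -0.52 and Ddc at 0.69, both with overlapping intervals.

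For 8 of the 29 genes the authors' intervals did not overlap between the libraries, beside 4.38% of all genes. These intervals cover the counting of reads within 1 library and not the spread between samples, and they are narrow for abundant genes. Among genes at 25 CPM or more the figures were 8 of 20 and 7.38%. The 5 largest differences were Slc6a7 (-0.28), Slc1a4 (-0.23), Slc38a2 (0.18), Slc32a1 (-0.16) and Slc6a17 (-0.15). Slc1a2, Glul and Slc38a2 were the 3 higher in replicate 2 (2.25% of all genes), at 0.05, 0.10 and 0.18. The 5 lower ones (2.13% of all genes) were Slc17a7, at -0.05, and the 4 named with a minus sign.

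**Figure D5:**
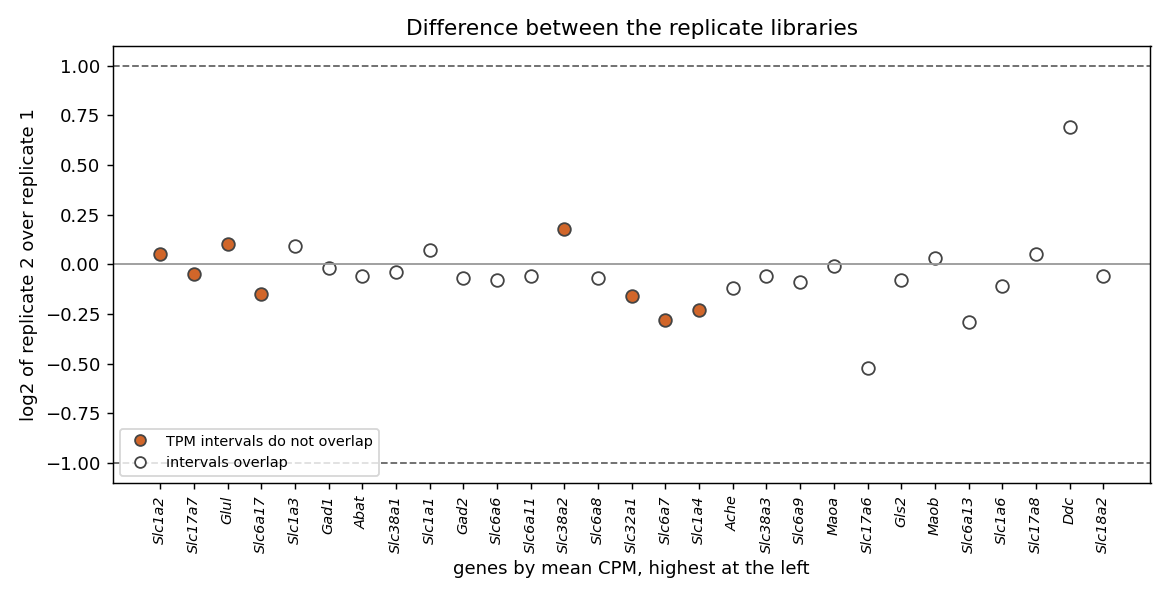
Log2 ratio of replicate 2 to replicate 1 for the 29 genes at a mean of 1 CPM or more, ordered by abundance; filled points are the 8 genes whose TPM intervals do not overlap and dashed lines mark a ratio of 1 in size. All points lie between the dashed lines, and the 2 furthest from 0, Slc17a6 and Ddc, are among the less abundant genes.

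Of a list of 45 further genes of these pathways, 33 were detected, where 58.0% of nuclear protein-coding genes were: all 12 breakdown enzymes, 12 of 18 synthesis and cofactor enzymes and 9 of 15 transporters. The breakdown enzymes were led by genes of glutamate metabolism, the aspartate aminotransferases Got1 (132.8 ± 8.80 TPM) and Got2 (88.6 ± 2.62) and the glutamate dehydrogenase Glud1 (122.7 ± 1.19). Highest of the second group were Ckb, the brain creatine kinase (483 ± 5.39 TPM), Qdpr, which recycles the cofactor tetrahydrobiopterin (66.3 ± 1.57), and Acly, a source of acetyl-CoA (47.8 ± 2.86). The transporters were led by Slc6a15, a neutral amino acid carrier (31.6 ± 1.29 TPM), Slc29a4, a low-affinity monoamine transporter (22.9 ± 0.544), and Slc7a10, a carrier of glycine and serine (21.2 ± 2.34; SD, n = 2 throughout). None of the 45 had 0 counts in both libraries.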

How the data were processed

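Per the file headers, the authors deposited for each library 1 table per gene and 1 per transcript, with TPM and expected count columns laid out as RSEM does. These deposited tables also hold a score, the bounds of a TPM interval, taken here as the 95% credibility interval of that layout. It is centred on another estimate than the TPM, so a TPM can lie outside its own interval, and intervals were compared only with intervals. A further deposited transcript table (estimated count and TPM, layout of kallisto) was summed per gene and is called the second quantification. Per the accompanying notes deposited by the authors the assembly is mm10 and the annotation M21; the authors' programs are not given in the sources used here.

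Spike-in entries (97, 0.378% and 0.368% of counts) and 26248 entries that name no annotated gene (4 and 6.99 counts) stayed out of library sizes. Ratios between libraries used expected counts plus 0.5 over TMM-scaled library sizes (edgeR 4.0.16, limma 3.58.1, R 4.3.3), at a mean of 1 CPM or more. Counts were rounded for the dispersion. On simulated data with 15509 genes, a log2 shift of 1.5 was recovered in 100% of 200 genes, with 2 false calls. The simulation gave all genes the same spread (4.86%) and shifts larger than the cutoff of 1. It therefore checked the calculation and not the real spread between the libraries, where 80 of 15509 genes passed that cutoff. The libraries differed beyond sampling (chi-square per degree of freedom 3.59 over 14527 genes) and count as 2. Intervals and limits for 0 counts (3 counts) cover counting error only. Neighbours in level are called separate where the ranges of the 2 libraries do not overlap; a pair of genes is called ordered where the sign is the same in both libraries and the intervals are separate in both. Alternatives were DESeq2 1.42.0 size factors, other minimums, another added count, the second quantification, rescaled TPM, counts without length, and each replicate left out. Tables were joined in Python 3.11.15 with pandas 2.3.3, numpy 2.4.6 and scipy 1.17.1, and figures drawn with matplotlib 3.10.9.

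The 38 genes, the further lists and the pairs were chosen with earlier results of these data known. Named are all 38 genes; of the further pathway genes, the 3 highest per role and any at 0 counts in both libraries; of the isoforms, those whose leading transcript differs or is not protein coding and the 5 lowest leading shares; of the differences between libraries, all genes apart and the 5 largest with separate intervals. The result of 1 further marker list is not reported here.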

Additional observations from a re-analysis of the deposited data

How the results depend on the processing

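The number of detected genes stayed between 24 (minimum of 5 TPM) and 29 (minimum of 0.5 TPM, or TPM rescaled over nuclear protein-coding genes), and was 28 without either replicate. The count of genes apart between the libraries, 0 in the report, was 4 with no filter on low counts (Chat, Slc18a1, Slc18a3 and Slc6a4, with at most 2 counts in a library) and 2 at a log2 ratio of 0.5 (Slc17a6 and Ddc). The median log2 ratio stayed between -0.07 and -0.05. The median protein-coding share was 90.6% in the second quantification and 96.5% as a share of counts, and 91.5% to 93.1% with 1 replicate left out. Of the single gene pairs, Slc38a1 over Slc38a3 reversed in the second quantification, at -0.09 on the log2 scale, and the cause was not tested. The other 17 pairs had either the same sign there or, for Maoa over Maob, no order in the first quantification. All 18 pairs kept their sign with counts not divided by length, and with either replicate left out. Every one of the 28 detected genes had a higher TPM in the second quantification. Whether a leading transcript is the same in both libraries cannot be computed with 1 library. No paired analysis was possible because the 2 libraries form 1 group.
With 2 libraries the spread of each gene is poorly known, and genes under about 10 counts cannot be ranked.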
